A study of Homo sapiens with 16 samples.

Results

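Cholesterol synthesis and uptake were followed through 8 genes in A375 human melanoma cells and their catalase-transfected clones. SREBF2 and INSIG1 encode regulators, HMGCS1, IDI1, LSS, CYP51A1 and DHCR7 encode enzymes of the pathway, and VLDLR encodes a lipoprotein receptor. The genes were chosen by name from among the 18417 genes that had a transcript cluster, the array's unit of measurement, with 1 gene symbol. They were chosen with earlier results of these data known, as were the gene lists and motifs below. Where a gene had several clusters, the one with the highest mean over all arrays was taken. This concerned CYP51A1 alone. All 8 genes lay above 5.18 log2 units on each of the 16 arrays, a level that 95% of 360 olfactory receptor clusters did not reach.

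A cell makes cholesterol from acetyl-CoA through the mevalonate pathway or takes it up in lipoproteins. When sterols in the endoplasmic reticulum are low, the SREBP-2 precursor, the product of SREBF2, moves to the Golgi, where the site-1 and site-2 proteases release its transcription factor domain. This factor then raises the genes of both routes. INSIG1, itself a target of SREBP-2, holds the precursor back when sterols are plentiful. Melanoma cells, like other dividing cells, need sterols for new membranes.

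The series held 4 arrays each of 4 groups. G10 and A7 were A375 cells stably transfected with pcDNA3 carrying human catalase cDNA, and each was 1 clone obtained by dilution. PCDNA3 cells were A375 cells with the empty vector, and A375 cells were not transfected. All groups grew to subconfluence in medium with serum and insulin, and the transfected cells also received geneticin, so transfection and geneticin cannot be told apart. The labels call the replicates biological but do not say whether they were separate cultures, so the p values measure only the spread between these arrays. The control of a clone was the average of the PCDNA3 and A375 means, so the comparisons of G10 and A7 with it share those 8 arrays.

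Array medians lay between 5.85 and 5.97 log2 units, and arrays of 1 group correlated at r of at least 0.9844 across clusters, which are not independent replicates. CAT, the gene for catalase, averaged 8.27 in G10 and 9.02 in A7, against 8.56 in PCDNA3 and 8.73 in A375 cells. CAT did not pass the test as higher in A7 (0.37, adjusted p = 0.124) and was not higher in G10 (-0.38, adjusted p = 0.0526), so it does not check the label of that clone, and G10 stands here for the arrays labelled so. In limma, CAT passed as lower in G10 than in A7 (-0.75, adjusted p = 0.00221) and than in A375 cells alone (-0.47, adjusted p = 0.048). Against PCDNA3 cells alone it did not pass (-0.30, adjusted p = 0.226). Of 10 measured markers of the melanocyte lineage, 9 exceeded 5.18 in every group, among them MITF and SOX10. The markers summed to 86.5 log2 units in G10, 89.9 in A7, 83.7 in PCDNA3 and 81.3 in A375 cells, and their part in the results was not tested. The sums hide opposite changes of single markers. PMEL was 10.16 in G10, 8.78 in A7, 8.20 in PCDNA3 and 7.18 in A375 cells. In the same order TYRP1 was 7.44, 8.21, 6.50 and 5.22, and CSPG4 was 7.04, 8.39, 8.27 and 8.60. The immune marker PTPRC and the endothelial markers PECAM1, VWF and CDH5 were below 5.18 in every group. Above it in every group were KRT14 of 4 epithelial markers, CD14 of 3 immune markers, and LUM, COL1A1 and PDGFRA of 4 fibroblast markers, which summed to 21.2 log2 units in G10, 22.4 in A7, 21.0 in PCDNA3 and 22.3 in A375 cells.

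The promoters of 4 members are shown: SREBF2, INSIG1 and HMGCS1 as examples of sterol-regulated genes, and VLDLR because it differed most between the groups. Each window runs from 250 bases before to 50 bases after a RefSeq start site (GRCh38.p14), 5′ to 3′ on the strand of the gene. Capitals mark the sterol regulatory element TCACNCCAC, the NF-Y box CCAAT and the Sp1 box GGGCGG on either strand. The SREBF2 window is chr22:41832855-41833154 on the plus strand, that of INSIG1 chr7:155297628-155297927 on the plus strand, that of HMGCS1 chr5:43313363-43313662 on the minus strand and that of VLDLR chr9:2621537-2621836 on the plus strand.
SREBF2: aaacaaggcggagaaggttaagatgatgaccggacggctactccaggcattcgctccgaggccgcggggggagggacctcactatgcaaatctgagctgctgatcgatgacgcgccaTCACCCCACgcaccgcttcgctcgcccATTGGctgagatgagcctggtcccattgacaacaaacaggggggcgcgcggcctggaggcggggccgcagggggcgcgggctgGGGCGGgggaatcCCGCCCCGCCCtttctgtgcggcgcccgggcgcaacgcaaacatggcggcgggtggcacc
INSIG1: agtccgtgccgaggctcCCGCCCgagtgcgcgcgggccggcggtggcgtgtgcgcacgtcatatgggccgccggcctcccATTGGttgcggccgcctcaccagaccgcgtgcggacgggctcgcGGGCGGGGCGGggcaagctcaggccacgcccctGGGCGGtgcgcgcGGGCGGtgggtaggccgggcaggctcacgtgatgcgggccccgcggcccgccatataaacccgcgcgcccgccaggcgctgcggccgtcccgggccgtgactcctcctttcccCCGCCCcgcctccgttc
HMGCS1: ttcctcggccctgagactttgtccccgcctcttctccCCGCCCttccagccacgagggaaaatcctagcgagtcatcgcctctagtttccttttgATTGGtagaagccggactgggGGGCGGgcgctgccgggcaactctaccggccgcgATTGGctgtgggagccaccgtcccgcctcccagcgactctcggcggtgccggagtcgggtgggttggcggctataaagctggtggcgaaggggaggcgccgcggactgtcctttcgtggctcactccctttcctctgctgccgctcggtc
VLDLR: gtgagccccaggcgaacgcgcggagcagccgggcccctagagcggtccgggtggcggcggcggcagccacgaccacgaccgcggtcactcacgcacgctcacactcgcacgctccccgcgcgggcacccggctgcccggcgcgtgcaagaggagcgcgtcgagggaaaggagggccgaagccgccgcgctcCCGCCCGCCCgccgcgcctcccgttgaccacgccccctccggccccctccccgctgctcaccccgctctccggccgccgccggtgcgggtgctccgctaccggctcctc

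Only the SREBF2 window, of 12 windows of the 8 members, held the 9 letters of the sterol regulatory element, 133 bases before the start. The element occurred in 1.13% of the 35116 promoter windows of the same length. An NF-Y box, the site of a partner of SREBP in many promoters, lay in 7 of the 12 windows and in 6 of 8 members, but not in VLDLR or CYP51A1 (34.6% of all windows). HMGCS1 had 2 windows, and the one not shown held no NF-Y box. Sp1 boxes lay in 11 of the 12 windows (45.0% of all windows). The SREBF2, INSIG1 and VLDLR windows each contain a pair of Sp1 boxes that share bases. A match describes letters only, and its absence says nothing about the factor.

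VLDLR, a receptor that takes up triglyceride-rich lipoproteins, showed the widest range of group means among the 8 genes. Its log2 values were 6.09, 6.29, 5.84 and 5.98 in G10 and 6.80, 6.82, 7.12 and 7.14 in A7. They were 5.83, 6.03, 6.46 and 6.20 in PCDNA3 and 7.47, 7.26, 6.99 and 7.31 in A375 cells. G10 and PCDNA3 cells were low, A7 and A375 cells were high, and no array of the low pair reached an array of the high pair. In an array of whole cultures, fewer cells with a transcript and less transcript per cell cannot be told apart.

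VLDLR was lower in PCDNA3 than in A375 cells, which both served as controls, by a log2 difference of -1.12 (standard error 0.15, adjusted p = 0.0111 from limma), or 2.18-fold. VLDLR was the only 1 of 8 members called, where 0.0781% of all clusters were called lower and 0.045% higher. In G10, VLDLR fell against the average of both controls, with a log2 difference of -0.64 (standard error 0.13, adjusted p = 0.0017). Against A375 cells alone the difference was -1.21 (adjusted p = 3.83e-05, where 6.21% of all clusters were lower and 8.02% higher), and against PCDNA3 cells alone it was -0.08, with a 95% interval from -0.39 to 0.23 (adjusted p = 0.799, where 7.01% of all clusters were lower and 8.44% higher). With all 8 control arrays pooled as 1 group the call in G10 was lost (adjusted p = 0.124, range 3.83e-05 to 0.799 over the alternatives).

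In A7 the VLDLR difference from the average control was 0.28 (standard error 0.13, adjusted p = 0.268). VLDLR rose against PCDNA3 cells alone, by 0.84 log2 units (adjusted p = 0.00288, where 3.01% of all clusters were higher, 1.71% lower and 4.72% either), and its difference from A375 cells alone was -0.28, with an interval from -0.59 to 0.02 (adjusted p = 0.355, where 2.47% of all clusters were higher, 1.69% lower and 4.17% either). The clones themselves differed, with VLDLR lower in G10 at a log2 difference of -0.92 (standard error 0.15, adjusted p = 0.000334), or 1.89-fold. The means in this difference rest on no control array, while its error was estimated over all 16 arrays. Without A375 replicate 2 the difference between PCDNA3 and A375 cells no longer passed (adjusted p = 0.0616), at an unchanged size of -1.12.

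**Figure D1:**
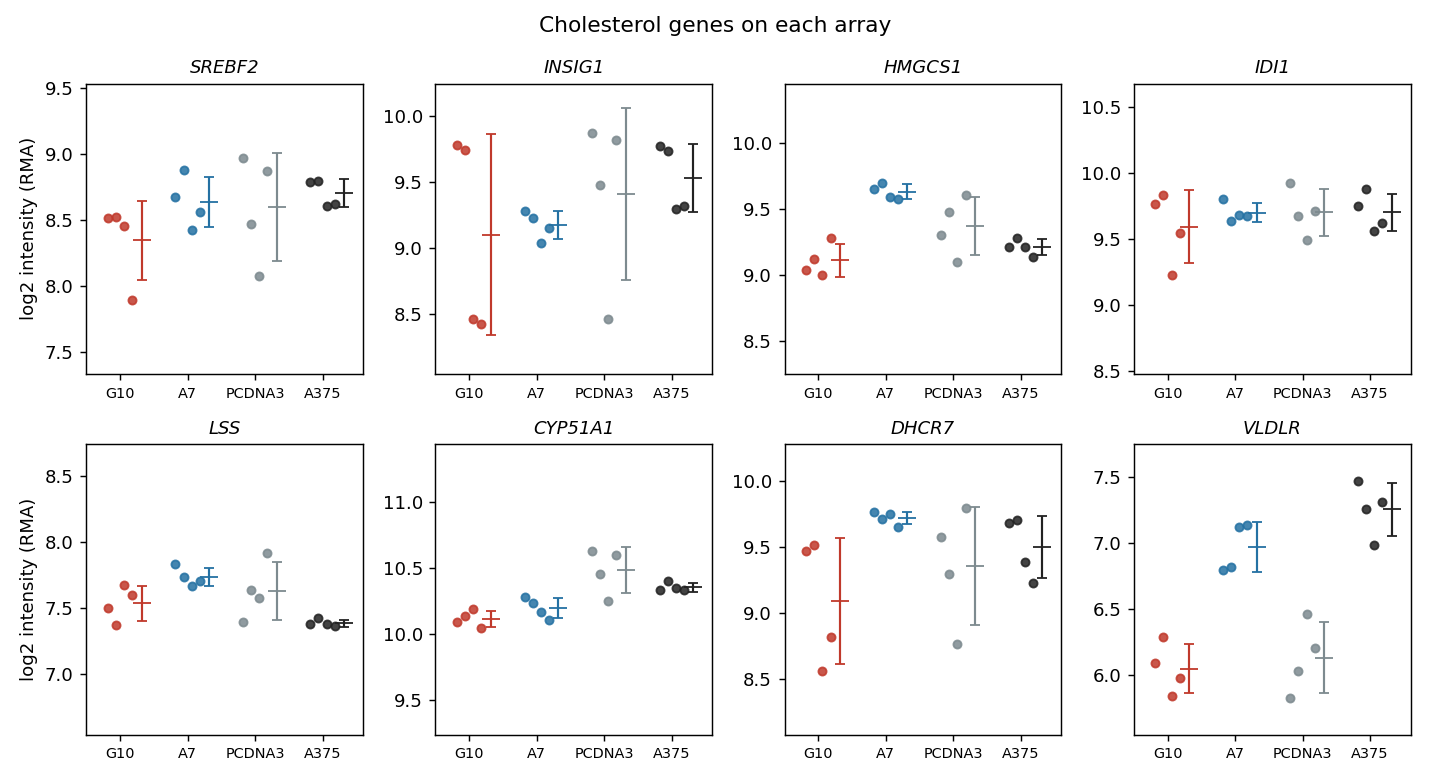
Log2 RMA intensity of the 8 cholesterol genes on each of the 16 arrays, with 1 panel per gene and 1 point per array (replicates 1 to 4 from left to right in each group); the bar beside each group is the mean ± SD (n = 4). All panels span the same number of log2 units. VLDLR splits into low G10 and PCDNA3 arrays and high A7 and A375 arrays, and INSIG1 spreads widely within G10 and PCDNA3 cells.

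HMGCS1, the cytosolic HMG-CoA synthase that makes the substrate of the rate-limiting step, was highest in A7. Its values were 9.04, 9.12, 9.00 and 9.28 in G10 and 9.65, 9.70, 9.59 and 9.57 in A7. They were 9.30, 9.47, 9.10 and 9.60 in PCDNA3 and 9.21, 9.28, 9.21 and 9.13 in A375 cells. Every A7 array lay above every G10 and A375 array, and 1 PCDNA3 array reached into the A7 range.

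HMGCS1 rose in A7 by 0.34 log2 units against the control (standard error 0.09, adjusted p = 0.0313 from limma), or 1.26-fold, as the only 1 of 8 members called higher, where 3.46% of all clusters were called higher and 5.69% in either direction. In G10 its difference from the control was -0.18 (standard error 0.09, adjusted p = 0.195). G10 also had less HMGCS1 than A7, with a difference of -0.52 (standard error 0.10, adjusted p = 0.00193). The rise in A7 held against A375 cells alone (0.42, adjusted p = 0.0258) and did not pass against PCDNA3 cells alone (0.26, adjusted p = 0.193, range 0.0138 to 0.193 over the alternatives). It was also lost when any 1 of 8 arrays was left out, namely A7 replicate 1 (adjusted p = 0.101), 2 (0.102), 3 (0.0692) or 4 (0.0567), PCDNA3 replicate 1 (0.0518), or A375 replicate 1 (0.0533), 3 (0.0518) or 4 (0.061).

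CYP51A1, the lanosterol demethylase, was lowest in G10. Its values were 10.10, 10.14, 10.19 and 10.05 in G10 and 10.28, 10.24, 10.17 and 10.11 in A7. They were 10.63, 10.46, 10.25 and 10.60 in PCDNA3 and 10.34, 10.41, 10.35 and 10.33 in A375 cells. All 4 G10 arrays lay below all 8 control arrays, while the A7 arrays overlapped with both G10 and PCDNA3.

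In G10, CYP51A1 fell with a log2 difference of -0.30 against the control (standard error 0.07, adjusted p = 0.00868 from limma). With VLDLR this made 2 of 8 members called lower in G10, where 7.9% of all clusters were called lower, and no member was called higher (9.92% of all clusters, and 17.8% in either direction). At an unadjusted p under 0.05 in limma the same 2 were lower and 0 higher, with no share of all clusters counted there. The CYP51A1 call held against PCDNA3 cells alone (-0.37, adjusted p = 0.00743) and did not pass against A375 cells alone (-0.24, adjusted p = 0.0786, range 0.00183 to 0.0786 over the alternatives). A second, dimmer cluster of CYP51A1 had a difference of -0.21 (standard error 0.08, adjusted p = 0.0839) and was not called. In A7 the difference was -0.22 (adjusted p = 0.106), which passed without PCDNA3 replicate 3 (-0.26, adjusted p = 0.0323), and G10 minus A7 gave -0.08, with an interval from -0.26 to 0.10.

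DHCR7, the reductase of the last step to cholesterol, varied more between replicates than HMGCS1 or CYP51A1. Its values were 9.47, 9.52, 8.57 and 8.82 in G10 and 9.76, 9.71, 9.75 and 9.66 in A7. They were 9.58, 9.30, 8.77 and 9.79 in PCDNA3 and 9.68, 9.71, 9.38 and 9.23 in A375 cells. Each G10 array was below each A7 array, but G10 replicates 3 and 4 lay far below the others.

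The DHCR7 difference between G10 and A7 was -0.63, with an interval from -1.10 to -0.16 (standard error 0.22, adjusted p = 0.073 from limma), and it did not pass the test. It passed without G10 replicate 1 (-0.76, adjusted p = 0.0432), without G10 replicate 2 (-0.77, adjusted p = 0.037), without PCDNA3 replicate 3 (adjusted p = 0.0397), when only clusters above 5.18 (adjusted p = 0.046) or with 1 gene symbol (adjusted p = 0.0393) were tested, and with the replicate number as a block (adjusted p = 0.0446). So 2 of 8 members, HMGCS1 and VLDLR, passed as lower in G10 than in A7, where 7.38% of all clusters did, and 15.2% passed in either direction. All 8 members had a negative difference in that comparison, with a median of -0.24, against a median of -0.01 over all clusters. Those of INSIG1 (-0.07) and IDI1 (-0.10) turned positive with array weights (0.28 and 0.006). Against the control, DHCR7 had -0.34 (adjusted p = 0.286) in G10 and 0.29 (adjusted p = 0.505) in A7.

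LSS, the cyclase that forms lanosterol, was lowest in A375 cells. Its values ran from 7.37 to 7.67 in G10, from 7.67 to 7.83 in A7, from 7.39 to 7.92 in PCDNA3 and from 7.36 to 7.42 in A375 cells. LSS had a difference of 0.23 in A7 against the control (standard error 0.09, adjusted p = 0.171), and without PCDNA3 replicate 4 it passed, at 0.28 (adjusted p = 0.0492). Against A375 cells alone every A7 array was higher (0.35, adjusted p = 0.0654). In G10 the difference from the control was 0.03, with an interval from -0.16 to 0.21, and PCDNA3 minus A375 gave 0.25 (adjusted p = 0.324).

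IDI1, the isomerase of the isoprenoid units, differed least between the groups. Its means were 9.59 ± 0.27 in G10, 9.70 ± 0.07 in A7, 9.70 ± 0.18 in PCDNA3 and 9.70 ± 0.14 in A375 cells (SD, n = 4 each). Its difference in G10 against the control, -0.11, had an interval from -0.34 to 0.13 (adjusted p = 0.6). In A7 the interval was -0.24 to 0.23.

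**Figure D2:**
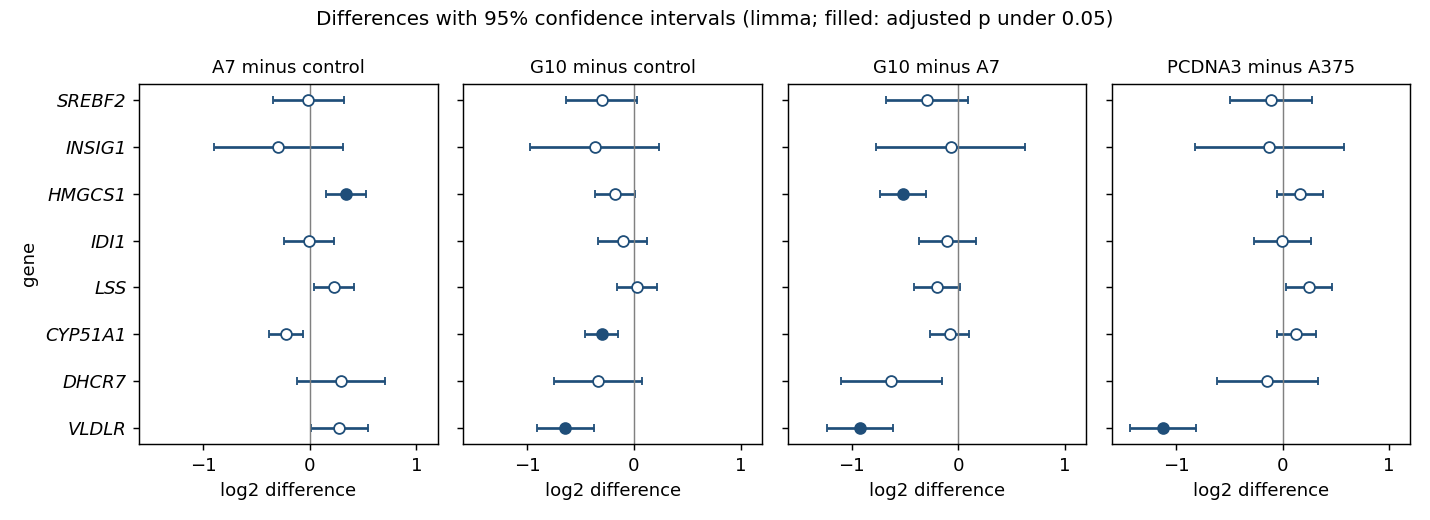
Log2 differences of the 8 genes in 4 comparisons (one panel each, x axis in log2 units), with 95% confidence intervals from limma over 16 arrays; control is the average of the PCDNA3 and A375 means, and filled points passed an adjusted p of 0.05. In the panel of G10 minus A7 all 8 points lie below 0, but only those of HMGCS1 and VLDLR are filled.

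SREBF2, the gene of SREBP-2, was called in no comparison. Its values were 8.51, 8.52, 8.45 and 7.90 in G10, from 8.43 to 8.88 in A7, from 8.07 to 8.97 in PCDNA3 and from 8.60 to 8.80 in A375 cells. G10 replicate 4 stood apart below the other 3 G10 arrays. The difference of G10 from the control was -0.30, with an interval from -0.64 to 0.03 (adjusted p = 0.228), and that of A7 was -0.01, from -0.35 to 0.32 (adjusted p = 0.985).

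INSIG1 varied most within groups, with a pooled SD of 0.52 log2 units over the 4 groups, against 0.10 for CYP51A1 and 0.13 for HMGCS1. Its values were 9.78, 9.74, 8.46 and 8.42 in G10 and 9.28, 9.23, 9.04 and 9.15 in A7. They were 9.87, 9.48, 8.46 and 9.82 in PCDNA3 and 9.78, 9.73, 9.30 and 9.32 in A375 cells. The G10 arrays thus formed a high and a low pair around the A7 values, and PCDNA3 replicate 3 was as low as the low pair. No comparison called INSIG1: the difference was -0.37 in G10 (interval from -0.97 to 0.24, adjusted p = 0.458) and -0.29 in A7 (interval from -0.90 to 0.31, adjusted p = 0.686). The G10 value moved to -0.16 without G10 replicate 3 and -0.14 without replicate 4, and to -0.59 and -0.58 without G10 replicates 1 and 2.

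The spread of INSIG1 and DHCR7 between replicates went along the same arrays. On G10 replicates 1 and 2 the members lay on average 0.16 and 0.20 log2 units above their G10 means, and on replicates 3 and 4 they lay at -0.19 and -0.17. On PCDNA3 replicate 4 all 8 members were above their group means (average 0.23), and on PCDNA3 replicate 3 only 1, VLDLR, was above (average -0.31). On A375 replicates 1 to 4 the averages were 0.09, 0.10, -0.11 and -0.09, and on A7 replicates 1 to 4 they were 0.04, 0.02, -0.04 and -0.02. In G10, A7 and A375 cells, but not in PCDNA3 cells, replicates 1 and 2 thus lay above and replicates 3 and 4 below. The 12 other sterol enzymes did not show this order in G10 or A7, with averages of 0.03, 0.06, -0.16 and 0.07 on G10 replicates 1 to 4 and -0.03, -0.06, 0.03 and 0.06 on A7 replicates 1 to 4. They did show it in A375 cells, with averages of 0.04, 0.05, -0.01 and -0.09 on replicates 1 to 4. On PCDNA3 replicates 3 and 4 these enzymes averaged -0.15 and 0.15, in the same directions as the members. The median deviation over all clusters was between -0.01 and 0.02 on every array, and the cause of these shared deviations was not tested.

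**Figure D3:**
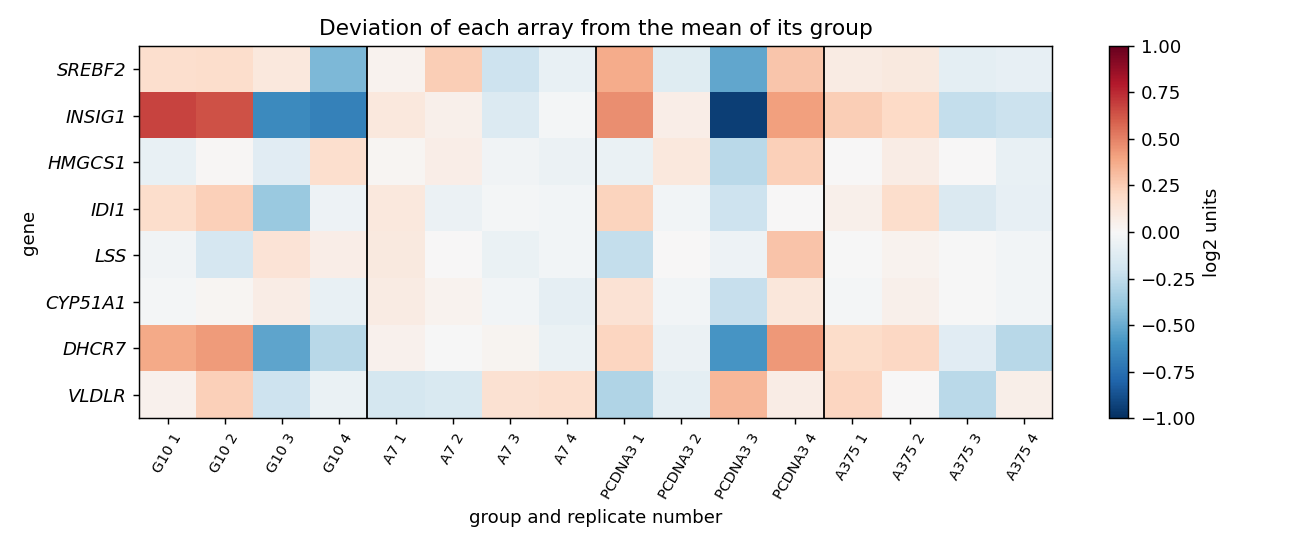
Deviation of each array from the mean of its group, in log2 units (color), for the 8 genes (rows) on the 16 arrays (columns, by group and replicate number). INSIG1, DHCR7 and SREBF2 carry the strongest colors, in G10 and in PCDNA3 cells, and the A7 columns are pale.

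Several other enzymes of the pathway also fell in G10. Of 16 listed enzymes 12 were measured, and the others were not analysed here. The list was chosen with earlier results of these data known, so its counts are descriptions. In G10, 5 of the 12 fell and 0 rose against the control (7.9% of all clusters fell), with a median difference of -0.21, against -0.04 over all clusters. At an unadjusted p under 0.05 in limma, 6 were lower and 0 higher, with no share of all clusters counted at that threshold. LBR, a sterol reductase that also anchors lamin, fell with a difference of -0.66 (adjusted p = 1.6e-05 from limma), and SQLE, the squalene epoxidase of a rate-limiting step, with -0.66 (adjusted p = 0.000163). ACAT2, which joins 2 acetyl-CoA at the start, fell with -0.56 (adjusted p = 0.00155), SC5D, a sterol desaturase, with -0.48 (adjusted p = 0.00675) and NSDHL, which takes part in removing the methyl groups of lanosterol, with -0.27 (adjusted p = 0.0138). Among these 5 already called genes, all but NSDHL lay below all 8 control arrays on each G10 array, which was not counted over all clusters. NSDHL did not pass against A375 cells alone (-0.20, adjusted p = 0.128).

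In A7, SC5D was the only one of the 12 that rose (0.45, standard error 0.11, adjusted p = 0.0287), and 0 fell (3.46% and 2.23% of all clusters), while at an unadjusted p under 0.05 in limma 1 was lower. This call was lost against PCDNA3 cells alone (adjusted p = 0.138), with median centring (adjusted p = 0.0513), and without A7 replicate 1 or 2, PCDNA3 replicate 2 or A375 replicate 1, 3 or 4 (adjusted p of at most 0.125). Its values ran from 8.21 to 8.64 in G10, 9.12 to 9.60 in A7, 8.77 to 9.22 in PCDNA3 and 8.79 to 8.96 in A375 cells. Between the clones, SC5D was lower in G10, at a difference of -0.93 (adjusted p = 0.000126), LBR by -0.55 (adjusted p = 0.000376), ACAT2 by -0.43 (adjusted p = 0.0284) and SQLE by -0.37 (adjusted p = 0.0355), which made 4 of 12 lower and 0 higher (5 and 0 at an unadjusted p under 0.05 in limma). Over all clusters 7.38% were lower and 7.83% higher at the adjusted threshold. Of these, ACAT2 and SQLE lost the call when each array was centred on its median (adjusted p = 0.0605 and 0.0723), ACAT2 in 5 and SQLE in 8 of 16 fits with 1 array left out. Between PCDNA3 and A375 cells limma called 0 of the 12 enzymes, and 0 had an unadjusted p under 0.05 (0.123% of all clusters were called in either direction).

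**Figure D4:**
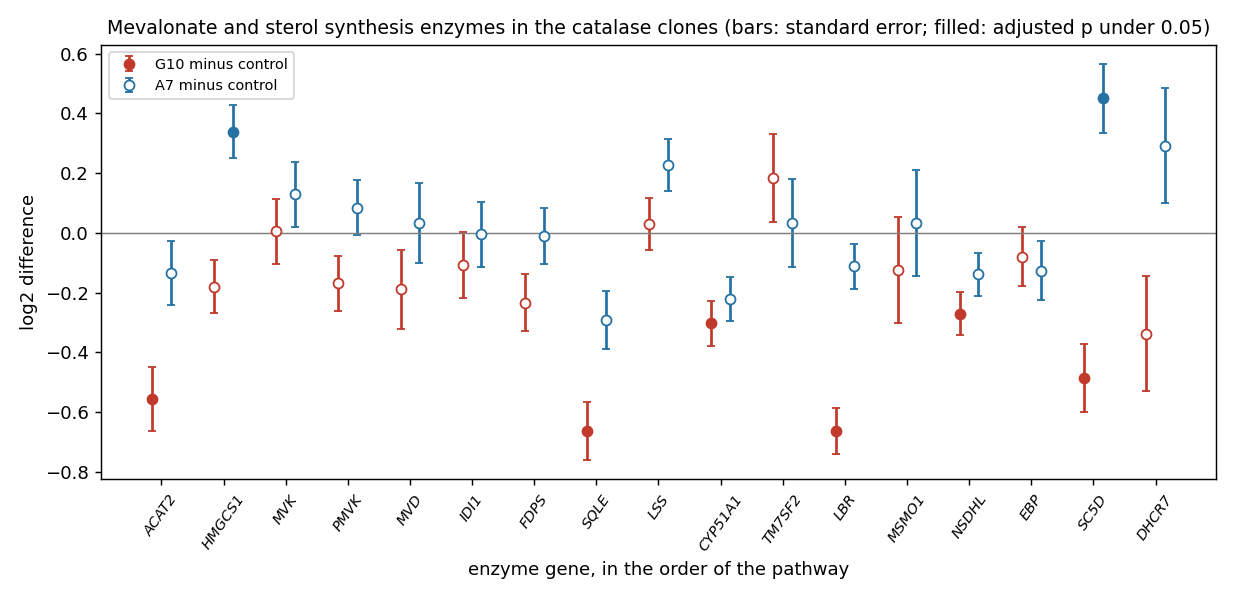
Log2 difference from the control (average of the PCDNA3 and A375 means) for the member and other listed enzyme genes from acetyl-CoA to cholesterol, in G10 and A7; bars are limma standard errors and filled points passed an adjusted p of 0.05. The filled G10 points (ACAT2, SQLE, CYP51A1, LBR, NSDHL and SC5D) all lie below 0, and the filled A7 points (HMGCS1 and SC5D) lie above it.

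Of the genes that process SREBP, 1 passed in opposite directions in the clones. MBTPS1, the site-1 protease, rose in A7 (0.37, adjusted p = 0.0223) and fell in G10 (-0.50, adjusted p = 0.000741), and G10 minus A7 was -0.87 (adjusted p = 2.33e-05 from limma). INSIG2, the relative of INSIG1, rose in G10 (0.45, adjusted p = 0.0018). RNF139, a ubiquitin ligase of the endoplasmic reticulum, had -0.38 in A7 and passed as lower (adjusted p = 0.0212). Of 6 measured genes of this group, 1 rose and 1 fell in each clone (9.92% of all clusters rose and 7.9% fell in G10, and 3.46% rose and 2.23% fell in A7). The A7 calls were lost against A375 cells alone (MBTPS1 0.22, adjusted p = 0.315, and RNF139 -0.37, adjusted p = 0.0623). That of MBTPS1 was also lost without A7 replicate 1 or 2 (adjusted p = 0.0852 and 0.0921), and that of RNF139 without A7 replicate 3 or 4 (0.0944 and 0.0803).

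Of 9 measured genes of lipoprotein receptors and uptake, 2 rose and 1 fell in G10, and 1 rose and 1 fell in A7. Over all clusters 9.92% rose and 7.9% fell in G10, and 3.46% rose and 2.23% fell in A7. At an unadjusted p under 0.05 in limma, G10 had 3 of the 9 higher and 1 lower, and A7 had 2 and 1. LRP8, the closest relative of VLDLR, fell in G10 (-0.61, adjusted p = 6.3e-05) and in A7 (-0.30, adjusted p = 0.0354, lost against A375 cells alone and in 10 of 16 fits with 1 array left out). NPC2, which binds cholesterol inside the lysosome, rose in G10 (0.44, adjusted p = 0.00455, lost against A375 cells alone). SCARB1, a receptor for high density lipoprotein, rose by 0.52 in G10 (adjusted p = 0.0468), a call lost against A375 cells alone (adjusted p = 0.197) and in 14 of 16 fits with 1 array left out. MYLIP, a ubiquitin ligase that degrades VLDLR and related receptors, rose in A7 (0.39, adjusted p = 0.0321), which did not pass against either control alone or in 6 of 16 fits with 1 array left out.

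In the list of LXR, efflux and storage genes, NR1H3, the oxysterol receptor LXR alpha, rose in A7 (0.44, adjusted p = 0.0144, lost against A375 cells alone and without A7 replicate 1 or 2, at 0.0567 and 0.0621) and fell in G10 (-0.41, adjusted p = 0.00868, lost against PCDNA3 cells alone). SOAT1, which esterifies cholesterol for storage, fell in G10 (-0.70, adjusted p = 9.14e-05), and APOE, an apolipoprotein of cholesterol efflux, rose there (0.58, adjusted p = 0.00012). Of 9 measured genes 1 rose and 2 fell in G10, and 1 rose and 0 fell in A7 (also 1 and 0 at an unadjusted p under 0.05 in limma), and 6 of the 9 exceeded 5.18 in at least 1 group. For this list and those that follow, 9.92% of all clusters rose and 7.9% fell in G10, and 3.46% rose and 2.23% fell in A7. Of the 10 fatty acid synthesis genes, the targets of the related factor SREBP-1, ELOVL6 rose in G10 by 1.05 (adjusted p = 1.85e-06), while FADS2 (-1.14, adjusted p = 6.02e-06), ACSS2 (-0.84, adjusted p = 0.00141) and FADS1 (-0.54, adjusted p = 0.0231) fell. FADS1 did not pass without G10 replicate 3 (-0.35, adjusted p = 0.0904) or 4 (-0.47, adjusted p = 0.0778), against A375 cells alone (adjusted p = 0.0848) or with array weights (-0.33, adjusted p = 0.108). In A7 limma called 0 of the 10, and 1 had an unadjusted p under 0.05. Of 9 measured genes of the isoprenoid branch, 2 rose in G10, PDSS2 (0.58, adjusted p = 0.000704) and FNTA (0.42, adjusted p = 0.00374), and ICMT fell (-0.48, adjusted p = 0.0146, lost against A375 cells alone, at 0.0981, and without G10 replicate 1 or 2, at 0.0706 and 0.0703). FNTA also rose in A7 (0.36, adjusted p = 0.0288), lost against PCDNA3 cells alone and in 8 of 16 fits with 1 array left out. In A7, 4 of these 9 genes were higher and 0 lower at an unadjusted p under 0.05 in limma.

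The mean profile of the 8 genes over the 16 arrays, each gene centred on its own mean, was -0.23 ± 0.21 in G10, 0.13 ± 0.04 in A7, -0.01 ± 0.23 in PCDNA3 and 0.11 ± 0.12 in A375 cells (SD, n = 4 each). DHCR7 was most like the mean of the other members (Pearson r of 0.93 over 16 arrays), and LSS least (-0.06). Among 13745 other genes above 5.18 in at least 1 group, those most like the profile were CD200 (r = 0.966), an immunoglobulin-family surface protein, STARD4 (r = 0.92), which moves cholesterol between membranes, SOCS2 (r = 0.911), an inhibitor of cytokine signaling, MOXD1 (r = 0.91), a monooxygenase-like protein, and ZNF106 (r = 0.907), a zinc finger gene. These arrays share 4 groups and the deviations described above, so the r values are descriptions. STARD4 ran from 8.50 to 9.85 in G10, 9.52 to 9.85 in A7, 8.63 to 9.72 in PCDNA3 and 9.33 to 9.93 in A375 cells, and was called in no comparison.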

How the data were processed

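Each of 16 RNA samples was run on 1 Affymetrix Human Gene 1.0 ST array. The authors processed the arrays with RMA (background correction, normalization and a summary per cluster) and deposited log2 values for 33297 transcript clusters. The version of RMA is not given in the sources used here. They were used unchanged. Array data hold no read depth, and the number of arrays limits the precision.

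Clusters were named by the annotation of the platform: 19460 had 1 gene symbol, 1754 had several and were not used for names, and 12083 had none. limma 3.58.1 in R 4.3.3 fitted 1 mean per group over all 16 arrays (lmFit, eBayes, 3.57 prior degrees of freedom). Within each comparison the Benjamini-Hochberg adjustment covered every cluster, and an adjusted p under 0.05 was a call. No set test was made. Shares of all clusters were counted at the adjusted threshold only, so counts at an unadjusted p have no share beside them. The procedure was tested on simulated data. Figures were drawn with matplotlib 3.10.9 in Python 3.11.15.

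The named genes were the 8 members, CAT, the 12 measured enzymes of the sterol list, up to 4 called genes per other list and comparison with the largest change, and the 5 genes most like the mean member profile. STARD4 was thus named by likeness. Members, lists and motifs were chosen with earlier results of these data known. Each control alone, pooled controls, only the arrays compared, limma-trend, array weights, robust variances, median centring, a further quantile normalization, restricted sets of clusters, the mean over the clusters of a gene, blocking on the replicate number and the omission of single arrays were tried as alternatives.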

Additional observations from a re-analysis of the deposited data

Results flagged for a closer look

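Among the 39 genes named or eligible to be named, 156 groups of 4 arrays were checked for an array far from the other 3, and 6 were found, where chance gives about 1 in 20. For the members this was SREBF2 on G10 replicate 4, at 7.90. The others were SC5D on A375 replicate 2 (8.96, the highest of its group) and, each the lowest of its group, SCARB1 (9.53) and FADS1 (9.60) on PCDNA3 replicate 3, NR1H3 (6.52) on PCDNA3 replicate 1 and SOAT1 (9.87) on PCDNA3 replicate 2.

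In the limma test of G10 minus A7, 20 of these genes passed (15.2% of all clusters did). Calls in this comparison were among the grounds for naming the list genes, so the count is a description only. The members were VLDLR (-0.92) and HMGCS1 (-0.52). Lower in G10 were also FADS2 (-1.16), SC5D (-0.93), MBTPS1 (-0.87), NR1H3 (-0.84), ACSS2 (-0.69), LBR (-0.55), SOAT1 (-0.53), ICMT (-0.45), ACAT2 (-0.43), SQLE (-0.37), MYLIP (-0.36), LRP8 (-0.30) and DHDDS (-0.28). Higher in G10 than in A7 were ELOVL6 (0.85), SCARB1 (0.70), APOE (0.59), RNF139 (0.47) and NPC1 (0.41). With 1 array left out, the call was lost in 12 of 16 fits for ICMT, 11 for MYLIP and 10 for NPC1. It was lost in 8 for SQLE, 7 for LRP8, 5 for ACAT2, 3 each for DHDDS and SCARB1 and 2 for ACSS2. limma on only the arrays compared lost the calls of ICMT, ACAT2, MYLIP, LRP8, DHDDS, SCARB1 and NPC1 (adjusted p from 0.0609 to 0.136).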

How the results depend on the processing

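Of 880 values of the 8 members under the alternatives, 825 kept their direction and side of the threshold, 13 lost the call, 9 gained it and 33 changed sign. No value that changed sign was called on either side. The 2 members called lower in G10 became 1 with A375 cells alone, with PCDNA3 cells alone and with pooled controls. When 1 array was left out, the members called higher in A7 numbered 0 to 2, those called lower in A7 0 to 1, and those lower in PCDNA3 than in A375 cells 0 to 1. With A375 cells alone as control, VLDLR turned to -0.28 in A7, and with PCDNA3 cells alone SREBF2 was 0.041 in A7 and LSS -0.094 in G10. Array weights gave IDI1 0.015 in A7, 0.021 in G10 and 0.006 in G10 minus A7, LSS -0.057 in G10 and INSIG1 0.28 in G10 minus A7. The cause was not tested. Leaving out 1 array gave IDI1 from -0.039 to 0.033 in A7, -0.188 to 0.015 in G10, -0.183 to 0.020 in G10 minus A7 and -0.076 to 0.068 in PCDNA3 minus A375. For SREBF2 the range was -0.100 to 0.057 in A7 and -0.231 to 0.067 in PCDNA3 minus A375, for INSIG1 -0.30 to 0.15 in G10 minus A7 and -0.28 to 0.19 in PCDNA3 minus A375, for LSS -0.016 to 0.085 in G10, and for DHCR7 -0.289 to 0.054 in PCDNA3 minus A375. In G10 against the control it was -0.594 to -0.142 for INSIG1, -0.478 to -0.161 for DHCR7 and -0.390 to -0.153 for SREBF2. The other enzymes called lower in G10 than in A7 fell to 2 of 12 with median centring and without G10 replicate 1 or 2 or A7 replicate 1, 3 or 4.

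Replicate numbers are shared between the groups. By the median, same-numbered arrays deviated together no more than others (r of 0.005 over 24 pairs, against 0.007 over 72 pairs of different number). An r above 0.1 occurred in 3 of the 24 and in 6 of the 72 pairs. On this check the arrays were not treated as pairs. That check was over all clusters. The averages of the 8 members did agree in sign by number in G10, A7 and A375, though not in PCDNA3 cells. With a replicate block, DHCR7 in G10 minus A7 passed (-0.63, adjusted p = 0.0446) and no other call of a member changed. Among the listed genes the block ended the calls of SC5D in A7 and of MYLIP and NPC1 in G10 minus A7.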
